A study of Mus musculus with 2 samples.

Results

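Lysozymes and lysosomal cathepsins are the enzymes with which a macrophage digests what it takes up. Lysozymes cut the peptidoglycan of bacterial cell walls, and cathepsins are proteases, mostly active at the acid pH of the lysosome. Cathepsins are made as proenzymes, sorted to the lysosome on mannose 6-phosphate tags and held in check outside it by cystatins and serpins. In macrophages they also trim antigens and the invariant chain for class II presentation. The genes described here are Lyz1, Lyz2, Ctsa, Ctsb, Ctsc, Ctsd, Ctsh, Ctsl, Ctss and Ctsz. They were found by matching the accession of each non-control probe to a gene symbol, which gave 12 probes for the 10 genes, among 15030 named genes that were well above background on both arrays. Ctsa and Ctsd had 2 probes each and the other 8 genes had 1, and each probe was printed as 1 spot.

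The study measured RNA from RAW246.1 cells, described in the labels as macrophages, on 1-colour mouse arrays of the maker Agilent. One culture grown in DMEM was labelled as given PBS (mock) and the other as given synthetic miR-122, a liver-enriched microRNA, in order to ask how miR-122 acts on macrophage activation. This is a cultured line given a synthetic molecule, so neither alveolar macrophages nor miR-122 released by liver was measured. Both samples carry the same treatment text, which states 5 μg/mL of miR-122, and the title of the miR-122 sample reads as if the microRNA were absent. Groups and directions therefore rest on the source names, and no gene in the data checks them. Each group held 1 array, so there was no replicate check, no test and no standard deviation between cultures. Treatment cannot be told apart from the position of the array on the slide.

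No spot on either array was saturated. Probes printed 10 times had a median standard deviation of log2 signal over spots of 0.05 (PBS array) and 0.06 (miR-122 array). Probes of the same gene differed in their log2 difference with a pooled standard deviation of 0.30. Macrophage markers were present: 8 of 9 on the array were well above background on both arrays, and Mertk was the exception. Log2 levels on the PBS array were 6.78 for Csf1r, 6.23 for Cd14, 4.70 for Mpeg1, 3.72 for Itgam and 1.67 for Adgre1. Spi1, Fcgr3 and Fcgr1 lay below the 75th percentile, at -1.19, -1.39 and -2.79. A level here is a log2 signal minus the 75th percentile of all non-control probes on that array, and every difference is miR-122 minus PBS. Over all named genes the median difference was 0.09. Scaling on the median of each array instead moved it by -0.18, and quantile normalization by -0.12, so differences near 0 have no settled direction.

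Upstream sequences were taken from the RefSeq promoter table of build GRCm38.p6, which held 8 of the 10 genes, Ctsa with 2 starts. They are shown for 4 of them, because the differences turn on Ctss and on the Lyz1 and Lyz2 pair, and because Ctsd carries the motif known for lysosomal genes. Each is the 150 bases before the annotated start, 5′ to 3′ on the strand of the gene. Lyz1 and Lyz2 are neighbouring genes and close paralogs, and capitals mark the bases that differ between them in a global alignment. Lyz1 is chr10:117292869-117293018 and Lyz2 is chr10:117282273-117282422, both on the minus strand.
Lyz1: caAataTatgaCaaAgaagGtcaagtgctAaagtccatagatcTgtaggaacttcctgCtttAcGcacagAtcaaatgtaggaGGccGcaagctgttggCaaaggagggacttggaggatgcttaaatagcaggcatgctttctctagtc
Lyz2: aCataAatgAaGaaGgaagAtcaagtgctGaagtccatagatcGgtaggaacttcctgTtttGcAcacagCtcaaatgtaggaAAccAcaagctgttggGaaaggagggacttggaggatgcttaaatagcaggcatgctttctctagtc

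The 50 bases next to the start were identical in Lyz1 and Lyz2. Over the 150 bases shown, 134 of 149 aligned bases were identical (89.9%), against 66.3% of 98 aligned bases farther upstream. Ctss is chr3:95526636-95526785 on the plus strand, and its capitals mark the letters GAAANNGAAA, the core of the element bound by interferon regulatory factors. Ctsd is chr7:142387828-142387977 on the minus strand, and its capitals mark CACGTG, the core of the element bound by TFEB and its relatives.
Ctss: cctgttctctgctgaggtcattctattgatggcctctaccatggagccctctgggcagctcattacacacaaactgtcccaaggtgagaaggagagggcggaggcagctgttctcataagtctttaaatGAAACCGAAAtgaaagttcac
Ctsd: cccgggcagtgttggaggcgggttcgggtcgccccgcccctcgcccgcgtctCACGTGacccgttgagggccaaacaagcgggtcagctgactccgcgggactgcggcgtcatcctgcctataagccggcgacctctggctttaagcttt

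Both strands of the 250 bases before the start were searched for 3 sets of letters. GAAANNGAAA stood in 2.98% of the 32851 promoters of that length in the table and, among the 8 member genes, in Ctss only, where it begins 21 bases before the start. CACGTG, which reads the same on both strands, stood in 6.02% of promoters and in 3 member genes, Ctsa, Ctsd and Ctsl. GAGGAA, a core of sites for the myeloid factor PU.1, stood in 23.3% of promoters and in 2 member genes, Ctsc and Ctss. None of the 3 was found before Lyz1, Lyz2 or Ctsz. These matches describe letters in a window and are not measured sites.

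As a group, the lysozymes and cathepsins differed little between the arrays. All 10 genes were well above background on both arrays. None was higher by 2-fold or more with miR-122, where 4.57% of the 15030 named genes were, and none was lower by as much, where 1.78% were. A count of 0 among 10 genes is close to these background shares. Their median difference was 0.01, beside 0.09 over all named genes, with 5 positive and 5 negative differences. That median was negative with normexp, loess, the other scalings and the authors' values, down to -0.17. The members that differed most were Ctss, higher by 0.59 on the log2 scale, and Lyz2, 1.64-fold lower.

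The scanner software gives each spot an error, which for these probes was close to a fixed share of the signal and came to between 0.20 and 0.21 on a log2 difference. It covers the spot and not the culture. Of the 10 members, 6 had a difference smaller than that error, and 7 had one smaller than the 0.30 between probes of 1 gene. The exceptions to the latter were Lyz2, Ctsh and Ctss.

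**Figure D1:**
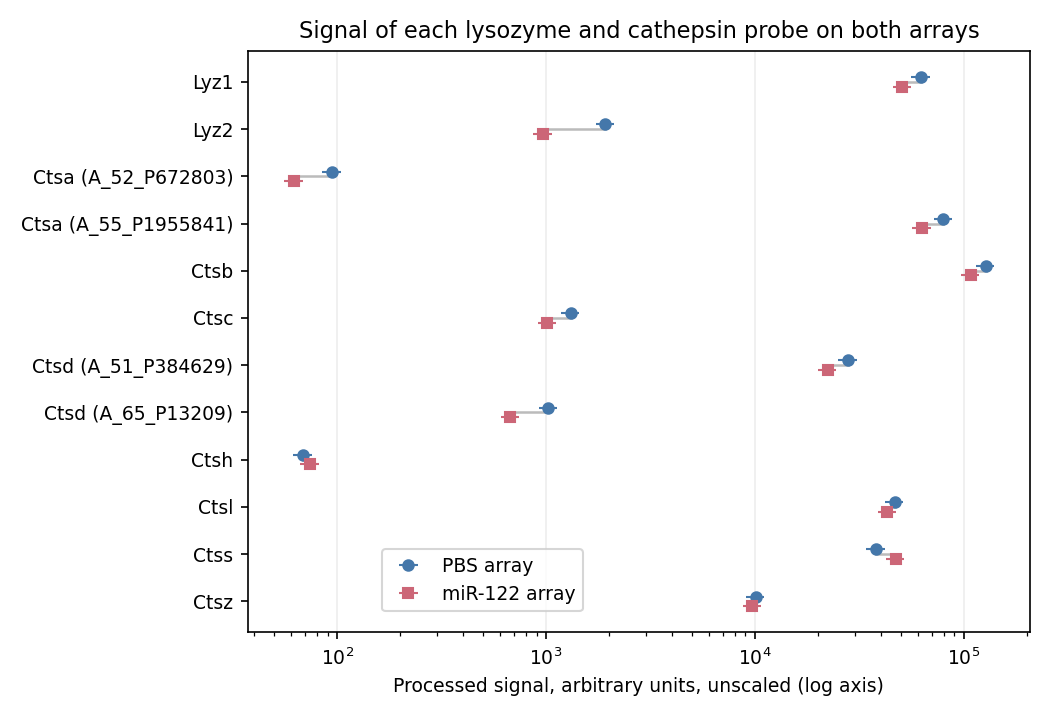
Processed signal of each of the 12 probes on the PBS array (circles) and the miR-122 array (squares), in arbitrary units before scaling, on a log axis. Bars are the error given by the scanner software; probe names tell apart the 2 probes of Ctsa and of Ctsd. Before scaling, 10 probes had the lower signal on the miR-122 array, and Ctss and Ctsh had the higher.

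Lyz2 encodes the lysozyme typical of macrophages, and Lyz1 the form known from Paneth cells of the gut. The Lyz2 probe gave a processed signal of 1916 with PBS and 965 with miR-122. After scaling these are levels of 2.19 and 1.47, a difference of -0.71 with a software error of 0.20. The Lyz2 probe was lower on the miR-122 array by more than that error, and its difference stayed between -0.89 and -0.68 under every scaling, background correction and filter tried. Of all named genes, 3.99% had a difference at or below that of Lyz2. In RNA from a whole culture, fewer cells with the transcript and less of it per cell cannot be told apart.

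The Lyz1 probe gave a signal of 62265 with PBS and 50644 with miR-122. Its levels were 7.21 and 7.19, a difference of -0.02. With this scaling Lyz1 showed no difference beyond the software error of 0.20. Under quantile normalization and in the authors' values its difference was -0.24, just beyond that error and its most negative value. Transcripts of Lyz1 and Lyz2 are similar, the probe sequences were not used here, and whether a probe detects both was not tested.

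Ctss encodes cathepsin S, a cysteine endopeptidase that keeps its activity at neutral pH and carries out late steps of invariant chain degradation in antigen-presenting cells. Its probe gave a signal of 37937 with PBS and 47078 with miR-122. It was 1 of only 2 member probes whose signal was higher on the miR-122 array before any scaling. The levels were 6.49 and 7.08, a difference of 0.59 with a software error of 0.20. Under quantile normalization and in the authors' values the Ctss difference was 0.38, its lowest value. Relative to the median of all named genes, it lay between 0.41 and 0.50 under every setting tried. A difference at least as high was found for 12.0% of all named genes. Among genes of like level, in the brightest of 10 bins of level, the median difference was 0.11 and the 90th percentile 0.91.

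Ctsl and Ctsb encode the most studied cysteine cathepsins, an endopeptidase and an enzyme that also removes dipeptides from the carboxyl end. The Ctsl probe gave 46584 with PBS and 42933 with miR-122, and its difference was 0.16. The Ctsb probe gave 126989.5 and 107621.7, and its difference was 0.04. Both differences were within the software error, and the sign of each turned with median scaling, in the authors' values and under quantile normalization. For Ctsb it turned with loess and normexp as well.

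Ctsc, Ctsh and Ctsz encode the cysteine cathepsins that mainly trim chain ends. Ctsc, also called dipeptidyl peptidase I, activates the serine proteases of granules. Its probe gave 1313 with PBS and 1013 with miR-122, a difference of -0.10. The probe of Ctsz, a carboxypeptidase, gave 10075 and 9690.5, a difference of 0.22, or 0.04 with median scaling. Neither of these differed by more than the spread between probes of 1 gene. Ctsh, an aminopeptidase, had a probe with little signal, 68.4 with PBS and 74.2 with miR-122. Its difference of 0.39 was 0.27 with normexp. That method corrects the background in another way and adds an offset of 50, which compresses differences between dim signals. With all genes split into 10 bins of level, the median difference was 0.34 in the dimmest bin and 0.08 in the bin that holds Ctsh.

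Ctsd encodes the main aspartic protease of the lysosome, and Ctsa a serine carboxypeptidase that also stabilises the glycosidases encoded by Glb1 and Neu1. The brighter Ctsd probe gave 27848 with PBS and 22297 with miR-122, a difference of -0.04, and the dimmer one 1024 and 675, a difference of -0.32. The brighter Ctsa probe gave 79498 and 62922, a difference of -0.06, and the dimmer one 94.6 and 62.1, a difference of -0.33. With the scaling used, the brighter probe of both genes lay near 0 and the dimmer one lower. With normexp the Ctsa probes differed by -0.11 and -0.15, brighter probe first, and the Ctsd probes by -0.13 and -0.36. In the authors' values the Ctsa probes differed by -0.31 and -0.44 and the Ctsd probes by -0.26 and -0.36, so the gap between the probes depended on the processing.

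**Figure D2:**
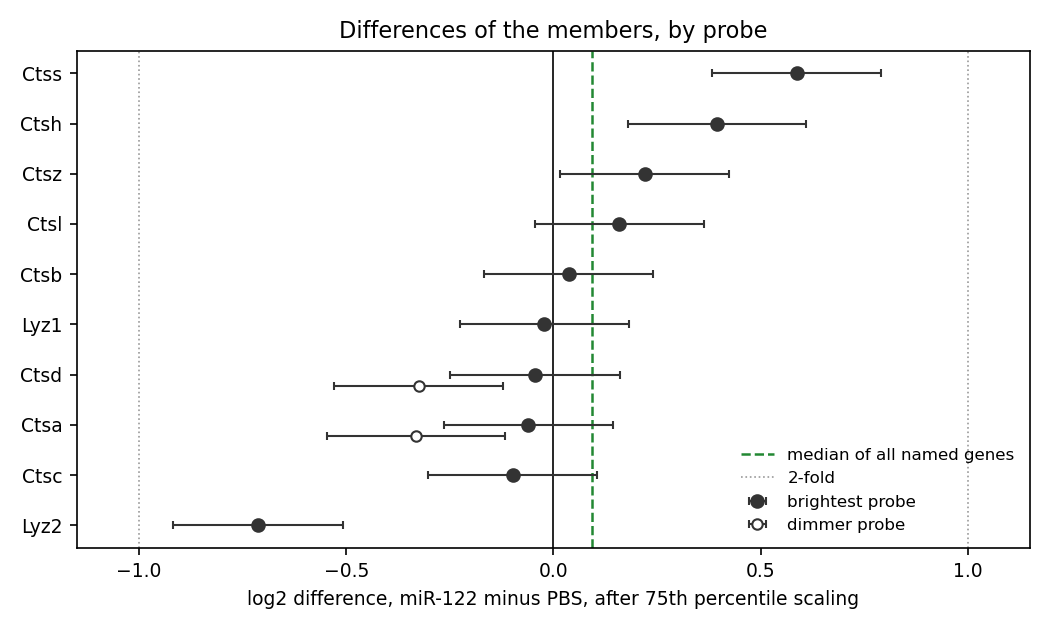
Log2 difference, miR-122 minus PBS, for each probe of the 10 genes after scaling on the 75th percentile, with bars for the software error. The dashed line marks the median of all named genes at 0.09 and the dotted lines mark 2-fold. Ctss at 0.59 and Lyz2 at -0.71 are the ends of the group, and no probe reaches 2-fold.

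The order of the members by difference ran from Ctss through Ctsh, Ctsz, Ctsl, Ctsb, Lyz1, Ctsd, Ctsa and Ctsc to Lyz2. Neighbours in the order differed by less than the software error, apart from Ctsc and Lyz2. Measured against the median of all genes under the same setting, Ctss, Ctsh and Ctsz were above it under all 10 settings. Lyz1, Lyz2, Ctsa, Ctsb, Ctsc and Ctsd were below it under all 10, although apart from Lyz2 by no more than 0.30. Ctsl turned.

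**Figure D3:**
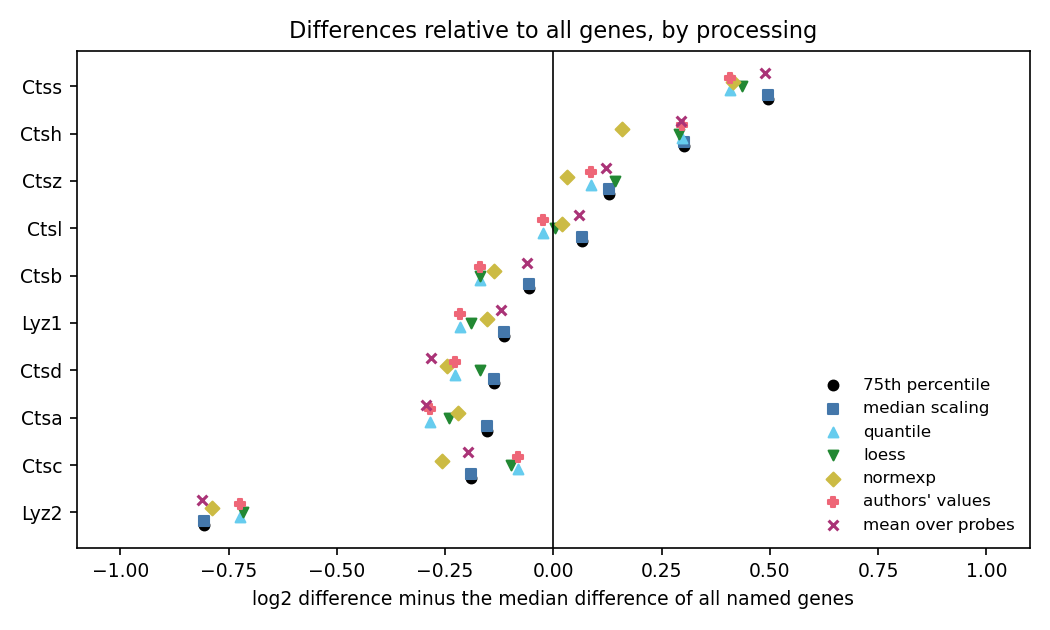
Log2 difference of each gene minus the median difference of all named genes, under the scaling used and 6 of the alternatives, 1 symbol for each. Ctss stays between 0.41 and 0.50 and Lyz2 between -0.81 and -0.72 in these 7 settings, while Ctsl lies on both sides of 0. Median scaling coincides here with the scaling used, and the authors' values nearly coincide with quantile normalization.

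By the distance between log2 levels on both arrays, the genes nearest to Ctss were Pgk1, Spag7 and Psmb6, at distances of 0.17, 0.17 and 0.18, with differences of 0.35, 0.56 and 0.40. The genes nearest to Lyz2 were Dad1, Timm10 and Adss, at 0.02, 0.05 and 0.06, with differences of -0.68, -0.67 and -0.70. With only 2 arrays this likeness is a description of signals.

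Among the other 14 cathepsin genes on the array, 8 were well above background on both arrays, 0 were 2-fold higher and 0 were 2-fold lower. Their median difference was 0.26, and it was between 0.08 and 0.26 over the scalings. Ctsk, the osteoclast collagenase that neighbours Ctss on the chromosome, gave signals of 4216 with PBS and 3453 with miR-122, a difference of -0.01, beside 0.59 for Ctss. Among the other 7, Cts7 differed by 0.47, Ctsw of cytotoxic lymphocytes by 0.41, Ctsm by 0.35, Ctse by 0.26, the neutrophil protease gene Ctsg by 0.26, Ctso by 0.24 and Ctsf by -0.30. Their levels on the PBS array lay between -4.77 and -0.94. Over all named genes in 10 bins of level, the median difference was 0.34, 0.23, 0.14 and 0.08 from the dimmest bin up. By mean level, Ctse and Ctsf were brighter than Ctsh, which lies in the bin with 0.08. Ctsr passed the background filter with PBS alone. Its difference of -0.72, with a software error of 0.58, was 0.08 with normexp, so it has no settled direction. Ctsj, Ctsq, Cts3, Cts6 and Cts8 were not well above background on either array. Of the 8 other genes of the lysozyme family, 4 were measured on both arrays, Lyg1 at 0.29, Lyzl4 at 0.18, Lyzl6 at 0.13 and Lalba at -0.08. Lyg2, Lyzl1, Spaca3 and Spaca5 were not well above background on either.

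Of 14 cathepsin inhibitor genes on the array, 12 were well above background on both arrays, with a median of 0.11 whose sign turned under other scalings. Only Serpinb9 was past 2-fold. This serpin, known as the inhibitor of granzyme B, gave 157 with PBS and 469 with miR-122 and was 3.62-fold higher, or 2.81-fold with normexp. Cst3, which encodes the secreted inhibitor cystatin C, gave 31246 and 29593, a difference of 0.20, or -0.03 at its lowest over the settings. Cstb, which encodes the cytosolic inhibitor stefin B, gave 12744 and 10432, a difference of -0.01. Apart from Serpinb9, the measured inhibitors lay between -0.11 and 0.48. Serpinb6b differed by 0.48, Stfa3 by 0.37, Serpinb1a by 0.35, Serpinb6a and Cst6 by 0.11 each, Cst7 by 0.06, Csta2 by -0.03, Stfa2 by -0.08 and Stfa2l1 by -0.11. Stefin genes are close relatives, and their probes may share transcripts.

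Genes for processing and partners of these enzymes had a median difference of -0.09 over 11 genes, negative under every scaling, with 3 positive and 8 negative and none past 2-fold. Psap, which encodes the precursor of the saposins, was at 0.50. Lgmn, which encodes the protease that processes several cathepsins, was at -0.46, and Ifi30, which encodes a lysosomal thiol reductase, at -0.40. The Ctsa partners Neu1 and Glb1 were at -0.09 and -0.30. The hydrolases of glycans and lipids had a median of -0.11 over 30 genes, also negative under every scaling, and 11 positive and 19 negative. Of these, 1 was 2-fold higher and 0 were 2-fold lower. That gene was Sgsh, 2.14-fold higher by its brighter probe, while its other probe differed by -0.83. The cholesterol carrier gene Npc2 was 1.73-fold higher.

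The 14 genes of mannose 6-phosphate sorting had a median of 0.10, which turned with median scaling, and 0 were 2-fold higher and 1 was 2-fold lower. Gnptab, which encodes the catalytic part of the enzyme that begins the tag, was 2.02-fold lower, or 1.85-fold with normexp. Igf2r, which encodes the large mannose 6-phosphate receptor, was 1.80-fold lower. The smaller receptor gene M6pr differed by 0.26, and Nagpa, which encodes the enzyme that uncovers the tag, was 1.84-fold higher.

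The 28 genes of the lysosome membrane and its proton pump had a median of 0.17, which turned with median scaling and in the authors' values. Only Laptm5, a membrane protein gene of blood cells, was past 2-fold, 3.54-fold higher. Lamp2 and Clcn7, which encode a membrane glycoprotein and a chloride exchanger, differed by 0.55 and 0.52. The transcription factors listed for lysosomal and myeloid genes had a median of 0.42 (10 genes) and of at least 0.24 under each scaling. Maf was 4.44-fold higher, or 2.46-fold with normexp, Cebpb was 1.63-fold higher, and Spi1, which encodes PU.1, differed by 0.58. Tfe3 differed by 0.31, and Tfeb, with little signal, by -0.17, a sign that turned with normexp. Of the same list, Tfec differed by 0.43 and Mitf by -0.32, the latter between -0.50 and -0.11 over the settings.

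**Figure D4:**
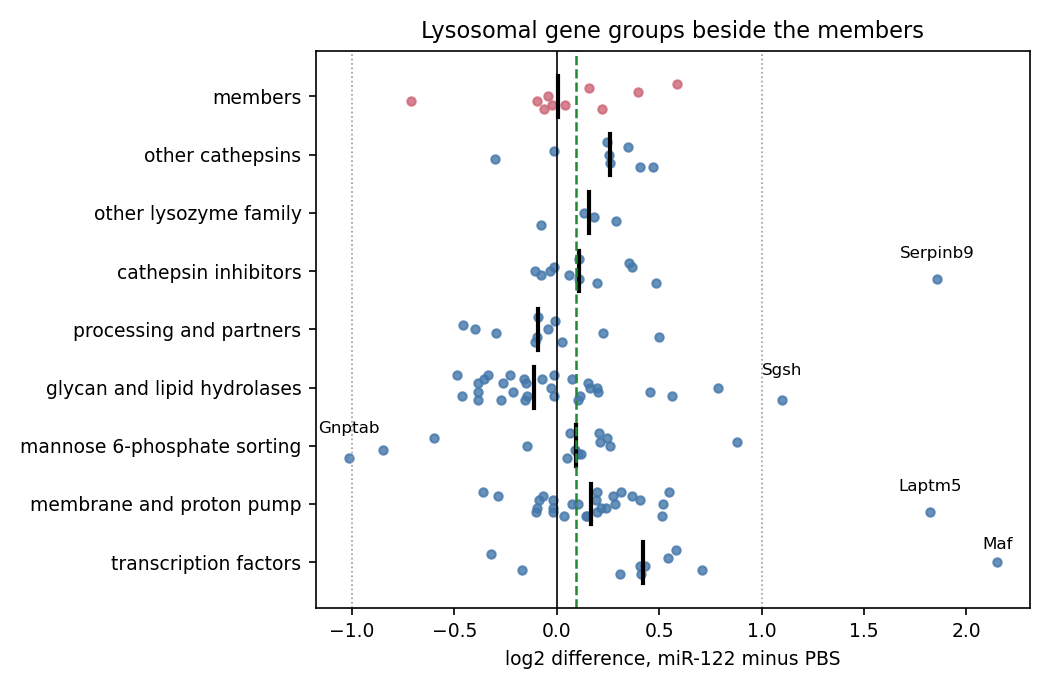
Log2 difference, miR-122 minus PBS, of each measured gene in the members and 8 other groups, with a bar at the median of each group. The dashed line is the median of all named genes at 0.09, the dotted lines are 2-fold, and genes past 2-fold are named. The members lie between -0.71 and 0.59, inside the 2-fold lines.

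Lysozyme and some cathepsins are also products of neutrophils, osteoclasts and dendritic cells, so markers of other cells were listed. Of 9 neutrophil granule markers on the array, 6 were well above background on both arrays, with differences between 0.08 and 0.64 and a summed level, in multiples of the 75th percentile, of 7.77 with PBS and 9.78 with miR-122. Of 8 osteoclast markers, 7 were measured, with a summed level of 79.5 and 63.7. Acp5, which encodes the tartrate-resistant phosphatase, was 2.91-fold lower and Nfatc1 2.19-fold lower, the latter under 2-fold at its highest value of -0.93 over the settings. Oscar and Ocstamp of the same list differed by 0.60 and 0.41, Dcstamp by -0.07, Mmp9 by -0.43 (0.03 with normexp) and Ctsk by -0.01. Of 7 dendritic cell markers, 5 were measured, with a summed level of 74.1 and 76.9, nearly all of it from Siglech, whose log2 levels were 6.20 and 6.25. Zbtb46 was 8.51-fold higher, or 3.41-fold with normexp. Itgax was 1.72-fold lower, or 1.24-fold by the same correction. It was the only negative difference of the 5, and the other 4 were positive. Xcr1 and Clec9a were not well above background on either array. Measured on both arrays were 3 of 6 B cell, 4 of 8 T cell and NK cell, 3 of 6 fibroblast and 3 of 6 hepatocyte markers, with summed levels of at most 4.21 on either array. The T cell kinase gene Lck was 2.03-fold higher, but normexp gave 1.78-fold and median scaling a log2 difference of 0.85. Of the 4 measured in that list, 3 had positive differences, and Cd3e, the other, differed by -0.37. Among the macrophage markers Fcgr1 was 10.1-fold higher, or 5.25-fold with normexp. Itgam differed by -0.85, or between -1.03 and -0.20 over the settings, and Mpeg1 by 0.94. Of the 8 macrophage markers measured, 4 had positive and 4 had negative differences. Csf1r differed by -0.78, Adgre1 by -0.58 and Fcgr3 by -0.24, while Cd14 differed by 0.25 and Spi1 by 0.58. The part of any of these in the differences of Lyz2 and Ctss was not tested.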

How the data were processed

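The deposited scanner files hold background-subtracted, detrended intensities and an error for each spot, as written per the file headers by Feature Extraction 11.0.1.1 of Agilent, with no step that makes the arrays alike. The series matrix holds log2 values processed by the authors; their normalization is not stated there. Its columns have the same distribution and correlated at 0.997 with the log2 scanner signal of their own array, and at 0.985 with the other. The differences of the members in the authors' values were nearly those of quantile normalization, such as 0.379 for Ctss in both. Both also gave the same counts of named genes, 528 higher and 354 lower. The authors' values are therefore not a check separate from quantile normalization.

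Of 44397 spots on each array, 1377 controls were left out, as were non-control spots flagged as outliers, 145 with PBS and 196 with miR-122. Signals were converted to log2, averaged by probe and scaled on the 75th percentile of their array. Accessions matched a RefSeq table of GRCm38.p6, used for names and gene order, for 27232 of 39427 probes. Each gene is represented by the brightest of its probes that both arrays measured well above background. A single array per group allows no test, and a gene was counted from 2-fold. The number of arrays limits the precision.

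The members, the gene lists and the alternatives were chosen with earlier results of these data known. Named were all members, all measured relatives and inhibitors, the genes past 2-fold and up to 3 genes with the largest absolute differences in each other list, and 3 nearest genes for the members with the highest and lowest differences. One gene that this rule takes is not reported here. Genes outside this rule, namely Neu1, Glb1, M6pr, Tfe3, Tfeb, Csf1r, Cd14, Mertk, Ocstamp, Dcstamp, Mmp9, Siglech, Xcr1 and Clec9a, were chosen after their values were seen. Adgre1 and Fcgr3, also outside it, complete the macrophage markers. Mitf and Tfec, outside it as well, were added after their values were seen. Upstream sequences of Lyz1 and Lyz2 were aligned with Biopython 1.88, with 1 for a match, -1 for a mismatch, -2 to open and -1 to extend a gap. Alternatives were median scaling, quantile normalization, loess with a span of 0.3, normexp with an offset of 50 on median spot and background intensities, the authors' log2 values, other filters and probe rules. R 4.3.3 with limma 3.58.1 and Python 3.11.15 with numpy 2.4.6 and pandas 2.3.3 were used. Counting was tested on simulated data.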

Additional observations from a re-analysis of the deposited data

How the results depend on the processing

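No member passed 2-fold in either direction under any scaling, background correction, filter or probe rule tried. At 1.5-fold, 1 member was higher (Ctss) and 1 lower (Lyz2). Lyz2 stayed beyond 1.5-fold under every setting, while the log2 difference of Ctss fell short of it at 0.53 (normexp), 0.44 (loess), 0.41 (median scaling) and 0.38 (both quantile normalization and the authors' values). All 90 values of single members under the alternatives stayed within the spread between probes of 1 gene, 0.30, of the value reported, the largest move being 0.25. Many of these values had little room to move. No member probe was flagged and all were well above background on both arrays, so the filter and outlier settings kept them. Averaging over probes could not change the 8 genes with 1 probe, and the authors' values repeated those of quantile normalization. Over all named genes, 687 (4.57%) were higher by 2-fold or more and 268 (1.78%) lower, so 71.9% of those past 2-fold were higher. Normexp gave 388 (2.58%) and 143 (0.951%). Without a filter on dim probes 1357 (6.57% of the genes then counted) and 451 (2.18%) passed. At 1.5-fold 1813 (12.1%) and 900 (5.99%) passed, and at 4-fold 0.812% and 0.113%. Median scaling gave 471 and 456 genes (3.13% and 3.03%), so that 50.8% were higher, and quantile normalization and the authors' values gave 59.9%. No paired analysis was possible because the groups share 1 replicate number and hold 1 array each. Signal over background limits Ctsh and the dimmer Ctsa probe, whose spots were between 6.46 and 8.62 times their local background.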

Other observations

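The letters GAAANNGAAA, found before the start of Ctss, were also looked up over the whole promoter table, with Ctss included. This comparison was chosen after the data had been seen. Measured on both arrays were 417 named genes with these letters in the 250 bases before an annotated start. Of these, 59 (14.1%) were higher by 2-fold or more with miR-122 and 4 (0.96%) were lower by as much. Of all 11989 measured genes in the promoter table, 4.52% were that much higher and 1.77% that much lower. The median difference was 0.23 with the letters and 0.09 over the table. For CACGTG, found before Ctsa, Ctsd and Ctsl, the median was 0.05 over 1076 genes, of which 3.53% were higher by 2-fold or more and 1.67% lower. For GAGGAA the median was 0.09 over 3083 genes, with 4.70% higher by as much. Promoters overlap between these groups, genes are not independent replicates, and no test was made.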
